A study of Acrobeloides nanus with 194 samples.

Results

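Transcripts whose mean level was highest in embryos of 1 to 4 cells of Acrobeloides nanus, a nematode, were chosen by a rule on measured levels. The rule also asked for an intermediate mean level over embryos of 5 to 16 cells, and 5 of the 16853 rows of the count table met it. Medians at single stages of 5 to 16 cells could be far lower, as given below. The rule took the libraries with at least 10000 counts whose title gives a stage. There were 150 libraries of that depth, and 4 of them, titled E alone, were outside the rule. Levels in CPM (a row's count scaled to an equal total in every library) were put on the scale log2(CPM + 50) and averaged over 4 stage bins. These held embryos of 1 to 4 cells (45 libraries), of 5, 6, 13, 15 or 16 cells (33), of stages E2, E4 and E8 (36), and of stages VE, Comma and LE (32). A row had to span at least 1 log2 unit between its highest and lowest bin, be highest at 1 to 4 cells, and keep at 5 to 16 cells at least 0.5 of its drop from the first bin to the lowest one. That share is called the kept ratio below. A span of 1 or more was found for 216 rows, and most of them were highest at 1 to 4 cells. Those early rows had kept ratios under 0.5 apart from the 5.

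The embryo of a nematode starts with RNA that the mother loaded into the egg. In animals generally such maternal transcripts are cleared step by step while the embryo's own genes are switched on, and they differ in how long they last. In Caenorhabditis elegans the daughters of the zygote P0 are AB and P1, those of P1 are EMS and P2, and those of P2 are C and P3. The P cells give rise to the germline and hold some maternal RNAs longer than their sisters, and E, a daughter of EMS, founds the gut. Whether a row counts maternal or newly made RNA cannot be read from these libraries, and in pieces of several cells fewer cells of a type and less RNA per cell cannot be told apart.

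Every library came from untreated A. nanus, a parthenogenetic free-living nematode, with the egg shell taken off, the cells parted by hand and each sample frozen alone. RNA was amplified by CEL-Seq2, which primes at the 3' end and adds a sample barcode. At the 2-cell stage there were 7 libraries of P1 and 7 of AB. The 3-cell stage gave P2 (5), EMS (4) and AB (7), the 4-cell stage P3 (4), C (2), p4 (2), EMS (1) and AB (3), and the 1-cell stage P0 (3). Libraries of 5 to 13 cells mostly hold 1 named cell or a small group, while those of 15 cells and most of E2 have a stage but no cell name. VE and Comma libraries are anterior, middle or posterior pieces. Early cells of 1 name come from different embryos, but cells of different names, and pieces of late embryos, can share an embryo. The rows carry no gene names or sequences in the files used here, so rows are given by their position in the table and nothing is said of the proteins.

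Totals in the libraries of the rule ran from 10179 to 1217040 counts with a median of 47792. The median was 96628 at 1 to 4 cells, 31301 at 5 to 16 cells, 27331.5 at E2 to E8 and 59904.5 at VE, Comma and LE. At a total of 10000, 1 count is 100 CPM. Libraries also stood apart along a first principal component, computed over 881 rows with 2000 or more counts and with the 5 rows left out, which held 24.3% of the variance. Of the libraries of the rule, 74 scored below 0 on it: 17 of 45 at 1 to 4 cells, 18 of 33 at 5 to 16 cells, 20 of 36 at E2 to E8 and 19 of 32 at VE, Comma and LE. Their median total was 27163.5 counts, against 96243.5 in the 72 others. They are called low-score libraries, and results that rest on them are given with and without them.

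The 5 rows were 16571, 7188, 14127, 9488 and 12271, in order of span. Row 16571 was the most abundant at 1 to 4 cells. It averaged 986 ± 1002 CPM at 1 to 4 cells (SD, n = 45), 440 ± 662 at 5 to 16 cells (n = 33), 152.3 ± 231 at E2 to E8 (n = 36) and 39.8 ± 50.8 at VE, Comma and LE (n = 32). Its median went down more sharply than its mean, through 459, 122.04, 36.6 and 23.2 CPM over the same bins. Row 16571 thus kept 44.6% of its first mean at 5 to 16 cells and 4.03% at the last stages. Only 1.16% of all rows had a higher mean CPM over the libraries of the rule.

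Row 7188 averaged 433 ± 321, 202 ± 220, 82.3 ± 79.96 and 46.3 ± 61.2 CPM over the 4 bins, in the same order and with the same n. Row 14127 averaged 469 ± 414, 329 ± 390, 190 ± 173.8 and 71.8 ± 56.5 CPM. It lost less than the first pair by 5 to 16 cells, with 70.2% of its first mean against 46.7% for row 7188. By medians these shares were lower, at 44.4% for row 14127 and 26.1% for row 7188. The low-abundance member, row 9488, averaged 118.1 ± 129.3, 60.8 ± 78.7, 42.2 ± 65.2 and 13.1 ± 14.4 CPM. Row 12271 declined least, with 185.04 ± 124.9, 150 ± 130.7, 112.7 ± 98.8 and 55.5 ± 40.7 CPM, and held 80.8% of its first mean at 5 to 16 cells (80.6% by medians). The standard deviations were of the size of the means, so single libraries of neighbouring bins overlapped widely for each of the 5 rows.

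These values chose the rows and are a description with no test. The spans were 2.75 log2 units for row 16571, 2.11 for row 7188, 1.69 for row 14127, 1.06 for row 9488 and 1.04 for row 12271. The kept ratios were 0.501, 0.512, 0.621, 0.509 and 0.690 in that order, and the last bin was the lowest for each. Rows 16571, 9488 and 7188 thus lay next to the ratio limit, and rows 9488 and 12271 next to the span limit. The nearest rows outside by ratio were row 16551 (0.494, span 2.17), row 13243 (0.485, span 2.47) and row 10267 (0.481, span 2.50). The nearest outside by span were row 15452 (span 0.985, ratio 0.593), row 1890 (0.922, 0.595) and row 12121 (0.885, 0.574). The rule allowed up to 150 rows, so no row was left out by rank.

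**Figure D1:**
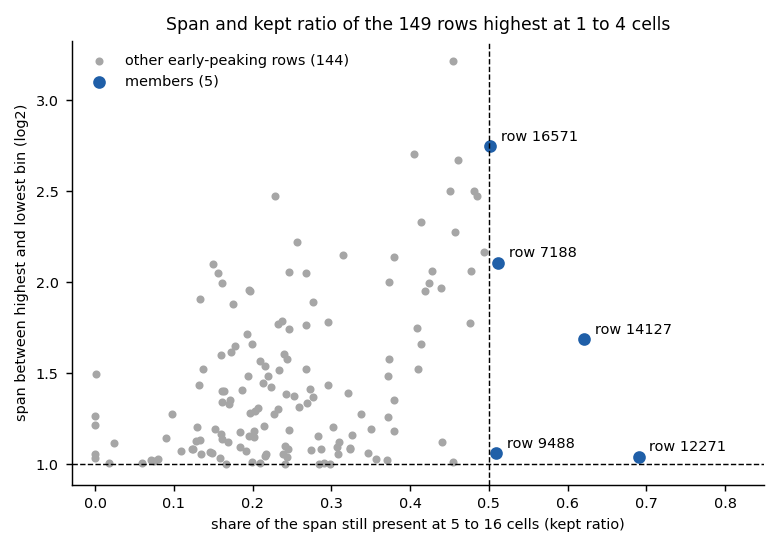
Each point is 1 of the rows of span 1 or more that were highest at 1 to 4 cells. The horizontal axis is the kept ratio and the vertical axis the span in log2 units, with dashed lines at the limits of 0.5 and 1. The 5 rows that passed (large points) stand at ratios of 0.501 to 0.690, and rows 16571, 7188 and 9488 lie next to the ratio limit, while the other rows (small points) had a median ratio of 0.233.

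Stage by stage the decline was not a smooth one. The median of row 16571 was 795 CPM at the 1-cell stage (n = 3), 443 at 2 cells (n = 14), 1234 at 3 cells (n = 16) and 267 at 4 cells (n = 12). It was 122.04 CPM at 5 cells (n = 7), 807 at 6 cells (n = 4), 44.95 at 13 cells (n = 13), 0 at 15 cells (n = 5) and 338 at 16 cells (n = 4). At the later stages it was 36.6 CPM at E2 (n = 11), 300.2 at E4 (n = 14), 0 at E8 (n = 11), 31.2 at VE (n = 8), 18.97 at Comma (n = 16) and 39.2 at LE (n = 8). The 1-cell median is the value of P0 replicate 2, a library whose counts reach a maximum described below. By these medians the name of the set, transcripts kept to 16 cells, held for row 16571 at 6 and 16 cells. The medians at 5, 13 and 15 cells were below every median of 1 to 4 cells. Low-score libraries were 5 of 7 at 5 cells, 8 of 13 at 13 cells and 4 of 5 at 15 cells. At 6 and 16 cells they were 1 of 4 and 0 of 4. With a score of 0 or above, AB replicate 2 and C replicate 2 of 5 cells had 1101 and 2050 CPM. Such libraries of 13 cells had 97.1 to 2224 CPM. The part of the score in these medians was not tested.

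For each of the 5 rows the medians at 6 and 16 cells were the highest of those at 5 to 16 cells. Row 14127 had medians of 107.3, 517, 88.7, 83.8 and 356 CPM at 5, 6, 13, 15 and 16 cells. Row 7188 had 63.8, 391, 76.5, 108.8 and 255 CPM at those stages. Row 9488 had 18.1, 78.4, 38.8, 0 and 51.02 CPM. Row 12271 had 95.7, 281, 134.9, 0 and 135.8 CPM, so that its 6-cell median was above its medians at 1 to 4 cells, of 226, 167.1, 178.8 and 98.2 CPM. The 6-cell and 16-cell values rest on 4 libraries each, and the 13-cell and 16-cell medians of row 12271 differ by less than the spread of either stage.

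The single libraries of those stages show how far the values spread. At 6 cells row 16571 had 1528 CPM in DP4, 127.05 in P4D, 116.7 in EMS and 1486 in AB. At 16 cells it had 1682 and 325 CPM in the 2 AB libraries, 225 in MS and 351 in the library with no cell name. At 15 cells 4 of 5 libraries held no count of it and the fifth held 3 counts, or 289 CPM. Those 5 libraries had totals near the minimum, with a median of 11928 counts, and a count of 0 allows up to 3 counts.

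**Figure D2:**
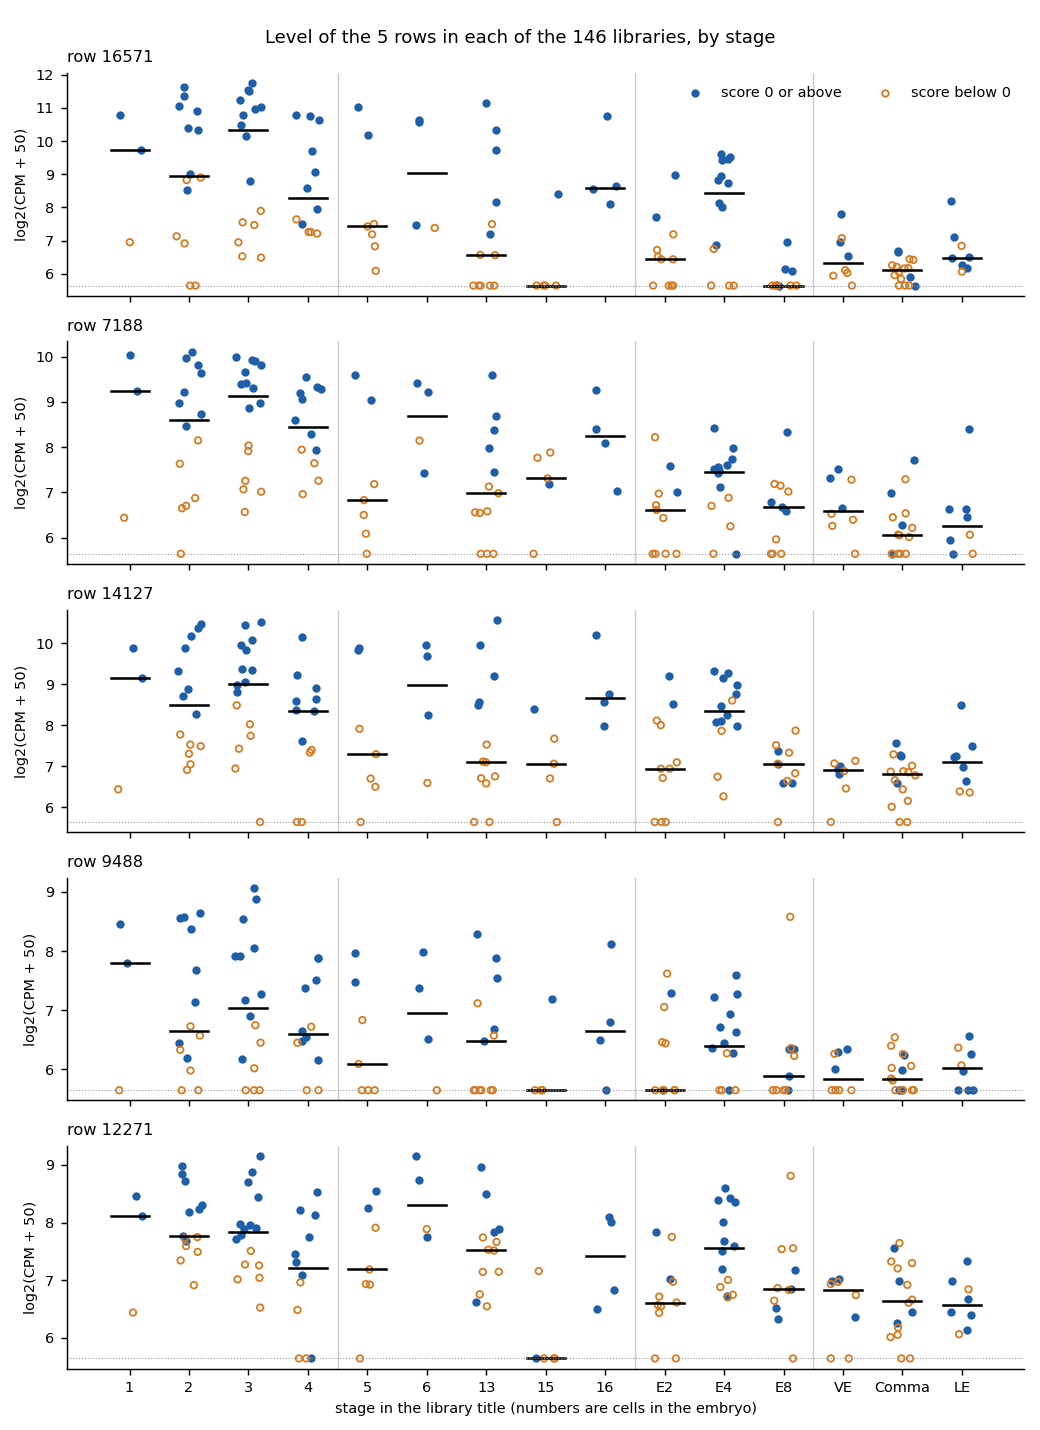
Level of each of the 5 rows in each library of the rule, as log2(CPM + 50), by the stage in the title. Filled points are libraries with a component score of 0 or above, open points low-score libraries, bars are stage medians, grey lines part the 4 bins, and the dotted line is the value of a library with no count. Within a stage the open points lie mostly below the filled ones, and row 16571 ranges from 0 to 2224 CPM among the 13 libraries of the 13-cell stage.

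At the 13-cell stage the values divided widely. The library of C, D and P4 together (CDP4) had 2224 CPM of row 16571, MS2 had 1231 and AB2 had 806. AB and AB3 had 238 and 97.1 CPM. The other 8 libraries had 0 to 130.6 CPM, 5 of them with no count, and all 8 were low-score libraries. Row 14127 repeated this, with 1474 CPM in CDP4, 941 in MS2 and 542 in AB2, and at most 134.9 CPM in the 8 low-score libraries. Row 12271 was the least divided. It was detected in 13 of 13 libraries, with 451 CPM at most (CDP4) and 43.5 at least (P4d). CDP4, MS2, AB2 and AB also have neighbouring sample numbers, apart from those of AB3 and the 8 low-score libraries. The parts of cell, score and sample order in these differences were not tested.

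Within stages the levels of the 5 rows went with the component score. With stage means removed, the correlation of level with score over the libraries of the rule was 0.839 for row 16571, 0.792 for row 7188, 0.798 for row 14127, 0.661 for row 9488 and 0.569 for row 12271 (Pearson). The points share library, depth and the scale of CPM. Over the 881 rows that made the score, the median of the same correlation was 0.0305, and from 10.2% (row 16571) to 23.7% (row 12271) of those rows had a higher one. The correlation with the log10 of the library total, also within stages, was lower and ran from 0.334 for row 12271 to 0.502 for row 7188. The part of depth in these levels was not tested.

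The 5 rows also went together. Within stages the correlation between 2 of them ran from 0.552 (rows 9488 and 12271) to 0.815 (rows 16571 and 14127), with row 12271 in the 3 lowest pairs. These values are a description over points that share their libraries.

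**Figure D3:**
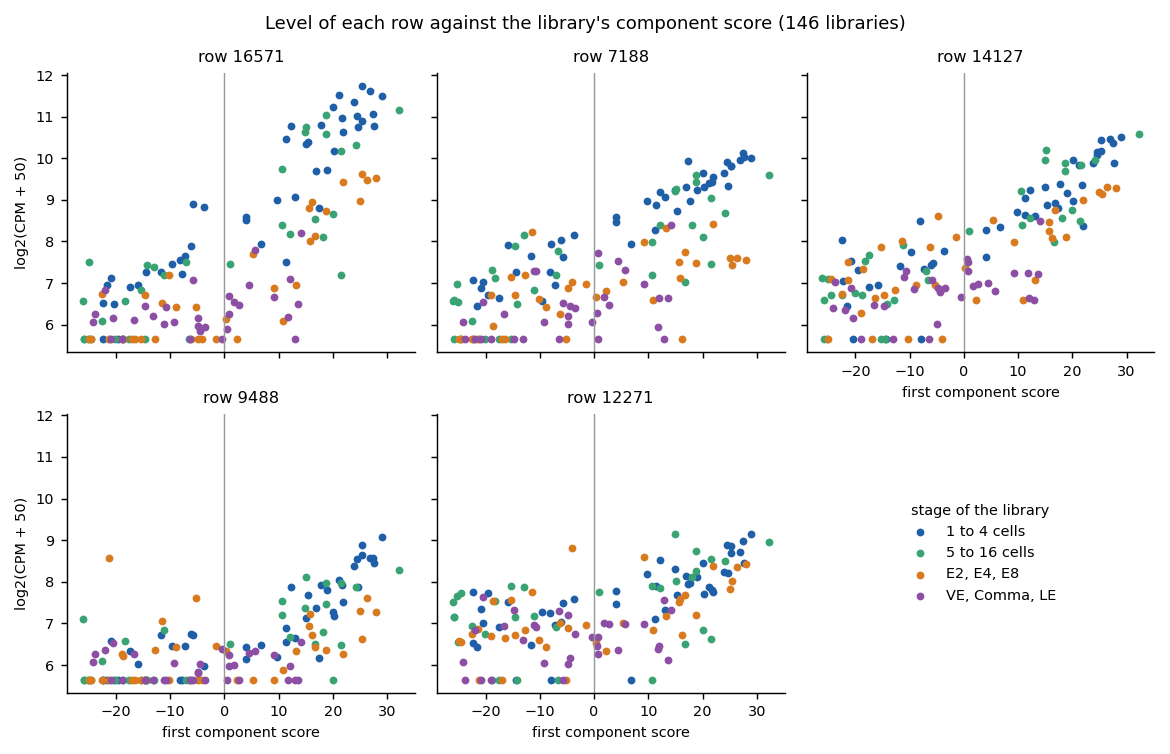
Level of each row, as log2(CPM + 50), against the first component score of the library, for the libraries of the rule, coloured by stage bin, with a vertical line at a score of 0. Levels go up with the score among the libraries of 1 to 4 and of 5 to 16 cells, and row 16571 has the highest within-stage correlation (0.839), while the VE, Comma and LE libraries with a score of 0 or above have at most 243 CPM of that row.

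Among libraries with a score of 0 or above, levels were higher in each bin and a larger part was kept at 5 to 16 cells than over all libraries. Row 16571 had a median of 1604 CPM at 1 to 4 cells (130.5 to 3366, n = 28), 806 at 5 to 16 cells (97.1 to 2224, n = 15), 300.2 at E2 to E8 (0 to 737, n = 16) and 43.4 at VE, Comma and LE (0 to 243, n = 13). In low-score libraries the medians were 98.2 (0 to 428, n = 17), 9.03 (0 to 131.1, n = 18), 0 (0 to 95.9, n = 20) and 16.9 CPM (0 to 84.5, n = 19). The low-score median at 1 to 4 cells was thus near the lowest value of the other libraries of 5 to 16 cells.

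Row 14127 had medians of 567, 542, 278 and 99.9 CPM over the bins in libraries with a score of 0 or above, and of 111.96, 54.5, 73.2 and 51.4 CPM in low-score libraries. For this row the first bins were nearly level once low-score libraries were left out, and its kept ratio was 0.948. Row 12271 likewise had 229, 208, 138.3 and 52.6 CPM in libraries with a score of 0 or above. Its low-score libraries had 81.8, 91.6, 56.3 and 51.4 CPM. Row 7188 had 585, 287, 131.2 and 49.999 CPM in libraries with a score of 0 or above and 84.2, 45.1, 31.4 and 16.9 CPM in low-score ones. Row 9488 had 163.7, 115.3, 34.5 and 13.3 CPM in libraries with a score of 0 or above, and its low-score medians were 13.0, 0, 0 and 6.09 CPM.

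Without the low-score libraries the rule's own values were higher. The 5 rows had kept ratios of 0.664 (row 7188) to 0.948 (row 14127), against 0.501 to 0.690 with all libraries, and 90 rows of the table met the rule in place of 5. With low-score libraries alone, row 7188 was the 1 member that passed, at a ratio of 0.5001 and a span of 1.02, among 6 rows in all. The number of rows that meet the rule thus goes with which libraries are in the bins.

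**Figure D4:**
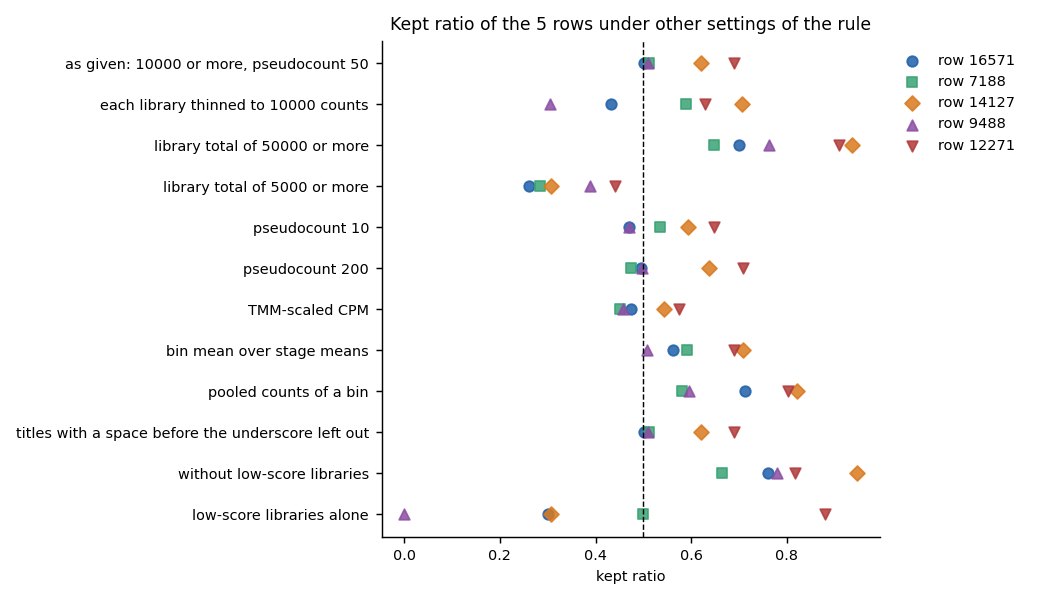
Kept ratio (horizontal axis, no unit) of the 5 rows under the rule as given (top line) and under 11 other settings. The dashed line is the limit of 0.5. Ratios stand to the right of the line for all 5 rows without low-score libraries (0.664 to 0.948) and with a minimum of 50000 counts (0.648 to 0.937), and to its left for all 5 with a minimum of 5000 counts (0.262 to 0.441).

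The 5 rows can be set beside the other early rows. Their median mean level at 1 to 4 cells was 433 CPM (118.1 to 986), against 203 CPM (86.7 to 1511) for the others. Their median within-stage correlation with the score was 0.792 (0.569 to 0.839), against 0.609 (0.129 to 0.958). Without low-score libraries, 5 of 5 and 41 of the other early rows had a kept ratio of 0.5 or more, and the medians were 0.779 for the 5 rows and 0.362 for the others. The level and the kept ratios partly restate the rule, the correlation comes from the same libraries, and none of these gets a test. Pooled over the libraries outside the rule, which are described next, the median over the 5 rows was 171.9 CPM at 1 to 4 cells and 40.7 CPM at 5 to 16 cells. The others had 98.2 and 27.2 CPM there. At E2 and at VE and Comma the medians were 54.5 and 53.04 CPM for the 5 rows, and 27.2 and 0 CPM for the others. By this median the 5 rows were lowest at 5 to 16 cells, so being kept was not seen in these libraries. The values rest on few counts.

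Together the 5 rows took up a median of 0.155% of a library's counts at 1 to 4 cells (0.0184 to 0.633%, n = 45). The medians were 0.0511% at 5 to 16 cells (n = 33), 0.0415% at E2 to E8 (n = 36) and 0.0201% at VE, Comma and LE (n = 32). Without low-score libraries they were 0.300%, 0.187%, 0.0834% and 0.0237%. By stage the median share was highest at 3 cells (0.246%), and was 0.209% at 6 cells and 0.0399% at 13 cells.

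The 48 libraries outside the rule are the samples in which its choice can be looked at again. Of these, 34 are libraries of the 4 bins with under 10000 counts, and 14 are titled E alone. In the shallow libraries of 1 to 4 cells (5 libraries, 40729 counts) row 16571 had 11 counts, or 270 CPM pooled (95% exact Poisson interval 134.8 to 483, for counting error only). In those of 5 to 16 cells (20 libraries, 147302 counts) it had 1 count, or 6.79 CPM (0.172 to 37.8). In those of E2 (6 libraries, 36704 counts) it had 2 counts, or 54.5 CPM (6.60 to 197). The 3 shallow libraries of VE and Comma held none, which allows up to 159.1 CPM at a limit of 3 counts. It was detected in 4 of 5 of the shallow libraries of 1 to 4 cells and in 1 of 20 of those of 5 to 16 cells. The 4-cell library C replicate 2 held 6 of the 11 counts at 1 to 4 cells, and without it the pooled value there was 158.5 CPM. The intervals leave out the spread between libraries, so the bins were not tested against each other here.

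Row 7188 had 221 CPM pooled in the shallow libraries of 1 to 4 cells (101.04 to 419), 40.7 at 5 to 16 cells (14.9 to 88.7), 27.2 at E2 (0.690 to 151.8) and 53.04 at VE and Comma (1.34 to 296). Row 14127 had 171.9 (69.1 to 354), 74.7 (37.3 to 133.6), 163.5 (59.99 to 356) and 371 CPM (149.3 to 765). Row 9488 had 73.7 (15.2 to 215), 40.7 (14.9 to 88.7), 0 and 53.04 CPM (1.34 to 296), and no count at E2 allows up to 81.7 CPM. Row 12271 had 24.6 (0.622 to 136.8), 47.5 (19.1 to 97.9), 108.98 (29.7 to 279) and 0 CPM, with a limit of 159.1 CPM at VE and Comma. Of the 20 shallow libraries of 5 to 16 cells, 17 are of 13 or 15 cells, and cells from a single embryo may be among them.

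The 14 libraries titled E alone belong to no bin. Row 16571 had 7 counts in 236689 (29.6 CPM pooled, 11.9 to 60.9) and was detected in 2 of 14. Among the 4 of them with 10000 counts or more, row 14127 ranged from 0 to 204 CPM and row 16571 from 0 to 47.005 CPM.

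Contrasts within a bin were not used by the rule and were tested with the quasi-likelihood test of edgeR over all rows that passed its filter on low counts, with Benjamini-Hochberg adjustment over those rows. A further comparison, of shallow libraries, was between bins but used libraries the rule left out. No member passed an adjusted p of 0.05 in any of the 9 comparisons, nor in any of the 98 fits over all settings. As designed, none could be called for 13-cell over 5- and 6-cell, E4 over E2 or the shallow libraries, since no member passed the filter there. The lowest adjusted p of a member was 0.0805. In counts simulated for P1 over AB, 2% of rows with a log2 change of 1 were called, and 38% of those with a change of 2. The simulated set held 12645 rows, against 1536 tested in the fit as designed. These shares therefore cannot be carried over to the members. The intervals given below are wide, so an absence of calls does not show equal levels. In the 9 fits as designed, 0 of 21 member values had an unadjusted p under 0.05 with edgeR, and likewise 0 of 21 with DESeq2. Over all rows of the edgeR fits that tested a member, such values ran from 13 of 314 (P4 titles) to 516 of 3097 (P2 over AB). Without a filter on low counts, 5 of 45 member values had an unadjusted edgeR p under 0.05. With 1 replicate left out, 1 of 198 did.

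At the 2-cell stage the question was whether the rows differ between the germline precursor P1 and its sister AB. Row 14127 ranged from 70.6 to 1358 CPM in P1 (median 586, n = 7) and from 108.4 to 1268 CPM in AB (median 169.1, n = 7). Row 16571 ranged from 0 to 3107 CPM in P1 (median 1237) and from 0 to 2092 CPM in AB (median 403). The ranges overlapped, and for row 16571 the P1 libraries with 2551 and 3107 CPM lay above every AB library. Row 14127 had a log2 fold change, P1 over AB, of 0.75 ± 0.70 (SE, 95% interval -0.71 to 2.21, edgeR adjusted p = 0.879). The other 3 members tested had 0.92 ± 0.94 (row 16571), 0.57 ± 0.75 (row 7188) and 0.32 ± 0.44 (row 12271), so that 0 of 4 were called. Over all rows 0% of 1536 were called, 94 had an unadjusted p under 0.05, and DESeq2 called 2. Row 9488 did not pass the filter, and without a filter its fold change was 0.83 ± 0.76. Single libraries moved these values by over 1.5 times. Without AB replicate 3, which held the highest AB value of all 5 rows, the fold changes were 1.58 for rows 14127 and 16571, 1.28 for row 7188 and 0.76 for row 12271, with an edgeR adjusted p of 0.372 or more. Without P1 replicate 3 they were 0.44 (row 14127), 0.54 (row 16571), 0.34 (row 7188) and 0.21 (row 12271), and row 12271 stood at 0.53 without P1 replicate 1 and 0.19 without P1 replicate 5. Of the libraries with a score of 0 or above, 5 are P1 and 3 are AB, and with those alone the 5 fold changes ran from 0.22 to 0.60.

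At the 3-cell stage P2, EMS and AB shared 1 fit. Row 16571 had 42.1, 2895, 397, 2351 and 3366 CPM in the 5 P2 libraries, and in the 7 AB libraries it ranged from 39.7 to 2831 CPM with a median of 1097. P2 held both the highest value and one of the lowest. The log2 fold change, P2 over AB, was 0.70 ± 0.97 for row 16571 (SE, edgeR adjusted p = 0.776), the other 4 rows ran from -0.05 to 0.56, and the median of all rows was -0.12. None of the 5 was called, where 0.194% of 3097 rows were. The fold change of row 16571 was 0.39 without P2 replicate 2 and 0.43 without P2 replicate 7. The lowest P2 value of row 16571 belongs to a low-score library. Without low-score libraries (4 P2 and 4 AB) its fold change was 0.30 ± 0.53, while 2.63% of 4981 rows were called. Without a filter 0.0594% of 16826 rows were called, again none of the 5.

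In EMS, the sister of P2, all 5 point estimates lay below AB with every library in the fit. Row 9488 had 69.6, 192.2, 37.4 and 0 CPM in the 4 EMS libraries and ranged from 0 to 486 CPM in AB with a median of 94.4. Its log2 fold change, EMS over AB, was -1.02 ± 0.85 (SE, 95% interval -2.78 to 0.74, edgeR adjusted p = 0.933). Row 7188 had 417, 455, 44.9 and 102.98 CPM in EMS and ranged from 79.3 to 972.9 CPM in AB with a median of 579, with a fold change of -0.96 ± 0.81. Without EMS replicate 7 row 9488 stood at -2.05 and row 7188 at -1.52, row 9488 stood at -0.59 without AB replicate 3, and row 7188 at -0.60 without EMS replicate 6. The remaining rows had -0.35, -0.33 and -0.57 (rows 16571, 14127 and 12271), and the median of all rows was -0.15. None of the 5 was called, where 0.0646% of 3097 rows were, and none without a filter, where 0.149% of 16826 rows were. Both comparisons of the 3-cell stage use the same AB libraries.

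At the 4-cell stage row 16571 had 1528, 337, 149.3 and 782 CPM in P3, and 487, 103.2 and 196 CPM in AB. P3 had the highest values, but its lowest lay inside the AB range. The log2 fold change, P3 over AB, was 1.43 ± 1.04 (SE, 95% interval -0.82 to 3.68, edgeR adjusted p = 0.58). Without P3 replicate 4 row 16571 stood at 0.65, and without AB replicate 4 at 2.13. Row 7188 had 0.70 ± 0.89 and row 14127 had 0.26 ± 1.03, and the median of all rows was 0.26. Rows 9488 and 12271 did not pass the filter. None of the 3 was called, as 0% of 673 rows were, with 63 rows at an unadjusted p under 0.05 and 1 called by DESeq2. Without low-score libraries 2.22% of 2029 rows were called and none of the 5, with 1.36 ± 1.02 for row 16571. The pair of libraries titled p4 at this stage, kept apart from P3, had 1679 and 130.5 CPM of row 16571.

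Over time within the first bin, row 14127 ranged from 0 to 1088 CPM at 4 cells (median 278, n = 12) and from 70.6 to 1358 CPM at 2 cells (median 314, n = 14). Its log2 fold change, 4-cell over 2-cell, was -0.81 ± 0.52 (SE, 95% interval -1.88 to 0.26, edgeR adjusted p = 0.671). Rows 16571 and 7188 had -0.83 ± 0.67 and -0.36 ± 0.48, and the median of all rows was -0.15. None of the 3 was called, as 0% of 518 rows were, with 60 rows at an unadjusted p under 0.05 and 2 called by DESeq2. Without a filter all 5 estimates were below 0, from -0.50 to -1.002, where the median of all rows was -0.35 and 0.0297% of 16840 rows were called. Row 12271 then had -1.002 ± 0.50 (edgeR adjusted p = 0.398). Without low-score libraries (8 and 8) the 5 estimates ran from -0.39 to -0.83, none of them called where 0.133% of 1501 rows were. Cells of 1 embryo enter this test as separate libraries.

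**Figure D5:**
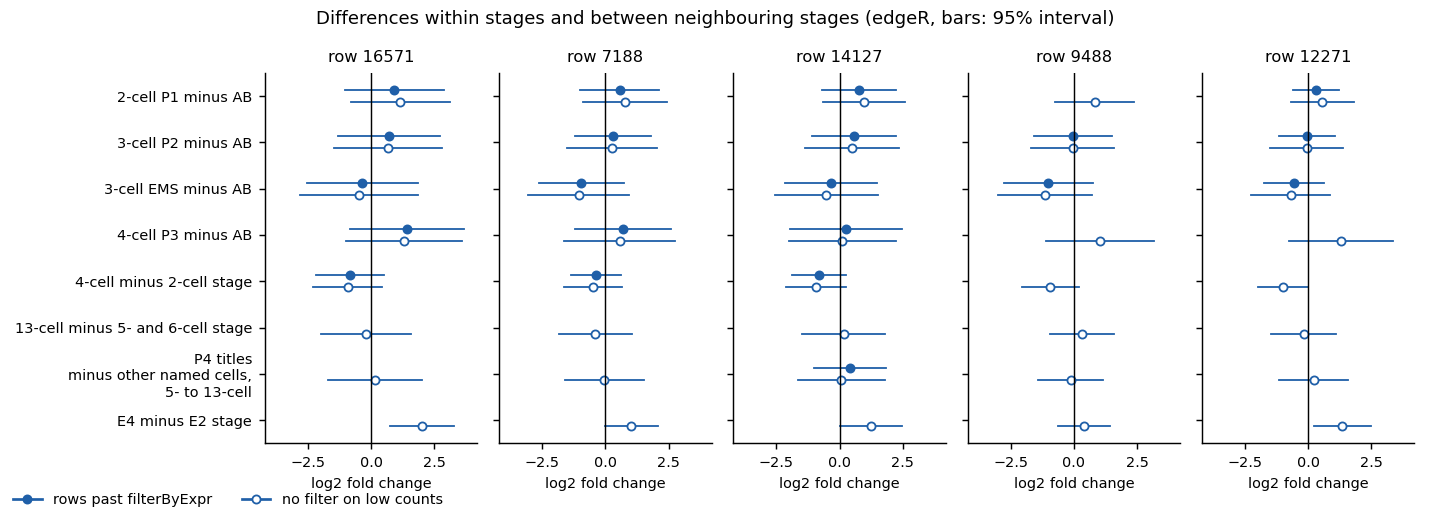
Log2 fold changes of the 5 rows in the 8 comparisons among libraries of 10000 counts or more (edgeR). Filled points are rows that passed the filter on low counts, open points the fit without that filter, and bars are 95% intervals. The intervals cross 0 except those of rows 16571, 14127 and 12271 for E4 over E2 and of row 12271 for 4-cell over 2-cell, all without the filter and none with an adjusted p under 0.05.

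Within the second bin none of the 5 rows passed the filter for the 13-cell stage against 5 and 6 cells, where 11% of the rows that passed were called. Row 7188 ranged from 0 to 723 CPM at 13 cells (median 76.5, n = 13) and from 0 to 726 CPM at 5 and 6 cells (median 122.4, n = 11). Without a filter its log2 fold change, 13-cell over 5- and 6-cell, was -0.39 ± 0.73 (SE, edgeR adjusted p = 0.999), the other rows ran from -0.20 to 0.32, and 0.707% of 16835 rows were called. The intervals reached from -1.82 to 1.04 for row 7188 and from -1.96 to 1.57 for row 16571, so a change of about the size of the bin difference could not be told from none. Without low-score libraries 0.064% of 1563 rows were called and none of the 5. Cells of 1 embryo may enter this test and the next as separate libraries.

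Libraries of 5 to 13 cells with P4, the later germline precursor, in their title were set against other named cells with stage as a term. Row 14127 ranged from 0 to 1474 CPM in 8 libraries with P4 (median 111.8), and from 0 to 941 CPM in 16 without it (median 149.4). Its log2 fold change, P4 titles over others, was 0.42 ± 0.69 (SE, edgeR adjusted p = 0.9997). It was the 1 member past the filter, and 0% of 314 rows were called, with 13 at an unadjusted p under 0.05. Without a filter 0.0297% of 16835 rows were called, none of the 5 among them. The title P4 also covers libraries that hold P4 with its neighbours, such as CDP4 with 2224 CPM of row 16571, and P4 alone at 5 and 13 cells had 18.1, 63.6 and 44.95 CPM of that row. These 3 libraries were low-score libraries.

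Inside the third bin the E4 stage stood above its neighbours. Row 16571 ranged from 0 to 737 CPM at E4 (median 300.2, detected in 11 of 14) and from 0 to 450 CPM at E2 (median 36.6, detected in 7 of 11). At E8 it was detected in 3 of 11 libraries, with 73.5 CPM at most. Row 14127 had medians of 73.2, 278 and 83.7 CPM at E2, E4 and E8, row 12271 of 47.9, 138.3 and 64.7, row 7188 of 47.9, 126.02 and 52.2, and row 9488 of 0, 34.5 and 9.24 CPM. The E4 median was thus the highest of the 3 for each row.

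None of the 5 rows passed the filter for E4 against E2, where 16.2% of 234 rows were called. Pieces of 1 embryo may enter this test as separate libraries. Without a filter the log2 fold changes, E4 over E2, were 2.02 ± 0.65 for row 16571 (SE, edgeR adjusted p = 0.0805), 1.36 ± 0.57 for row 12271, 1.25 ± 0.63 for row 14127, 1.03 ± 0.54 for row 7188 and 0.40 ± 0.52 for row 9488. Of these 5, 3 had an unadjusted p under 0.05, where 2725 of all 16788 rows did. Called were 0 of 5, where 1.38% of those rows were. The median of all rows moved by 0.56 in that fit. Relative to that shift, row 9488 did not stand higher at E4. At E2, 9 of 11 libraries were low-score libraries, and at E4 4 of 14. Without them (10 and 2 libraries) row 16571 had 0.63 ± 0.74 and row 14127 -0.02 ± 0.60. Only 2 E2 libraries remain in that fit.

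Among the late libraries of the rule, row 16571 was low in most pieces. It had 36.8, 26.4, 16.5, 12.2, 9.42 and 0 CPM in the anterior Comma pieces, 0 to 21.96 in the 5 middle ones and 0 to 53.2 in the 5 posterior ones. VE middle pieces reached 170.7 CPM and VE anterior pharynx pieces 84.5 CPM. Its highest value there was 243 CPM in 1 LE library with no cell name, which among the late libraries of the rule also had the highest values of row 7188 (287 CPM) and row 14127 (309 CPM). Among the shallow late libraries outside the rule row 14127 had 505 CPM in 1 VE middle piece and 317 CPM in 1 Comma middle piece, and row 9488 had 378 CPM in 1 Comma posterior piece. These values rest on 5, 2 and 1 counts. Over the late libraries of the rule, row 16571 had 93 counts in 2428221 in 32 libraries.

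The last contrast repeats a step between bins in libraries the rule left out, the shallow E2 libraries (n = 6) against those of 13 and 15 cells (n = 17). Only 55 rows passed the filter, none of the 5 among them, and 0% of the 55 were called, so the test was of little use. Without a filter 0.291% of 14422 rows were called and none of the 5.

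The highest counts of the 5 rows all came from P0 replicate 2, the deepest library, with 968 counts of row 16571. In that library 22 rows stood at 1024, the highest value in the whole table, which equals 841 CPM at its total. Row 16571 was at 795 CPM there, 1704 CPM in P0 replicate 3 and 73.7 CPM in P0 replicate 1. Whether the value of row 16571 in P0 replicate 2 was held down near that maximum was not tested.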

How the data were processed

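The measurements are CEL-Seq2 libraries of 194 samples. The authors deposited raw counts per row. CASAVA 1.8, Bowtie2 2.1.0 and HTSeq 0.5.4p3 are listed, without settings, per the submitters' processing notes, and no source used here says whether duplicate reads were collapsed. A column belongs to the sample whose description ends in its number. Groups come from titles. CPM and log2(CPM + 50) were computed from the counts. The rule used 146 libraries. Of 216 rows of span 1 or more, 149 were highest at 1 to 4 cells, and 144 of these had kept ratios under 0.5. The members and lists were chosen with earlier results of these data known.

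Comparisons were made in R 4.3.3 with edgeR 4.0.16 (quasi-likelihood test, TMM factors, filterByExpr, robust dispersions), fitted over the whole table. A row was called where its p, adjusted by Benjamini-Hochberg, was under 0.05. SE is the value that gives the test's F. DESeq2 1.42.0, no filter, no TMM factors, a minimum of 50000 counts, each replicate left out and a replicate block were alternatives. Leaving out low-score libraries, and single libraries of the shallow pool, was added after seeing the data. The scripts were tested on simulated data, with counts drawn at the spread of the fits. The simulated sets held 12645 rows for P1 over AB and 9035 for E4 over E2. As designed, the fits tested 1536 and 234 rows. Log2 changes of 1, 2 and 4 were called in 2%, 38% and 100% of changed rows for P1 over AB. For E4 over E2 they were called in 6%, 44% and 100%. Changes of -2 were called in 36% and 14% of changed rows in these comparisons. Named per comparison is the member with the smallest p, beside members ranked by span, level and kept ratio; others are given by range.

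Depth limits every value: totals ran from 973 to 1217040 counts with a median of 28629.5. Intervals and the floor of 3 counts cover counting error only, since no source states that molecules were counted. The deposited contig annotation names no genes and was not used here. P-values measure the spread between cells and pieces, which can share an embryo.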

Additional observations from a re-analysis of the deposited data

Results flagged for a closer look

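Within groups of 4 to 10 libraries, 50 sets of values were checked for 1 library far from the rest. The limits used are ones that chance passes in about 1 in 20 sets of independent, normally spread values. CPM values have a long upper tail and the 5 rows go together, so that rate does not apply here. Of the 50 sets, 3 passed. All 3 were in AB replicate 3 of the 2-cell stage, a library of 247589 counts. Row 7188 had 1058 CPM there, against 54.2 to 376 CPM in the other 6 AB libraries. Row 14127 had 1268 CPM, against 108.4 to 420 CPM. Row 12271 had 456 CPM, against 112.4 to 169.2 CPM. The 3 values come from 1 library, in which the levels of the 5 rows go together, and are not separate events.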

How the results depend on the processing

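The set of 5 rows depends on the settings of its rule. Of the 5, the rule kept 3 with every library thinned to 10000 counts (rows 16571 and 9488 fell under the ratio limit), 0 with a minimum total of 5000, 3 with a pseudocount of 10, 1 with a pseudocount of 200, 2 with TMM-scaled CPM and 1 with low-score libraries alone. It kept 5 with a minimum of 50000, stage means, pooled counts, titles with a space left out, or no low-score libraries, and the rows of the whole table that passed were then 78, 18, 78, 5 and 90. The number of members called was 0 in all fits, also without each replicate in turn (0 to 0). Of the fold changes of members under other settings, 294 kept their direction and 17 did not. With a minimum of 50000, P2 over AB was 0.41 for row 9488 and 0.19 for row 12271, and P4 titles over others was -0.25 for row 14127. P3 over AB was -0.034 for row 14127 without low-score libraries. With 1 replicate left out, values ran from -0.75 to 0.40 (row 9488) and -0.28 to 0.22 (row 12271) for P2 over AB, -1.15 to 0.013 (row 16571) and -0.79 to 0.057 (row 14127) for EMS over AB, and -0.24 to 0.71 (row 14127) for P3 over AB. The cause was not tested.

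Counts of called rows over the whole table moved more. For P2 over AB the count was 6 as designed, 3.62% of rows with DESeq2, 10 rows with no filter, 2 without TMM factors, 2 with a minimum of 50000, 2.63% of rows without low-score libraries and 0 to 62 with 1 replicate left out (0 without P2 replicates 2, 6, 7 or 8, 62 without AB replicate 3). For EMS over AB it was 2 as designed, 6, 25, 2, 1, 0 and 1 to 9 under the same settings. For P3 over AB it was 0 as designed, 1 with DESeq2 and 45 without low-score libraries. For 4-cell over 2-cell it was 0 as designed, 2 with DESeq2, 5 with no filter, 21 with a minimum of 50000 and 2 without low-score libraries. For 13-cell over 5- and 6-cell it was 18 as designed, 34 with DESeq2, 0.707% of rows with no filter, 3 without TMM factors, and 1 with a minimum of 50000 or without low-score libraries. For E4 over E2 it was 38 as designed, 96 with DESeq2, 231 with no filter, and 0 without TMM factors or without low-score libraries. For P4 titles it was 0 as designed and 5 with no filter.

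Replicate numbers are shared between cells of a stage, but no label says that a number marks an embryo. Same-numbered libraries deviated together (r over 0.1) for 6 of 7 numbers in P1 and AB and 2 of 5 in P2 and AB. For EMS and AB it was 3 of 4, and for P3 and AB 1 of 3. Libraries of unlike numbers also did, up to r = 0.729 for P1 replicate 5 and AB replicate 3. An r over 0.1 thus does not show that libraries share an embryo. With a replicate block 0 members were called, and over all rows 2 were called for P1, 0 for P2, 1 for EMS and 0 for P3. The P1, P2, EMS and P3 libraries were each set against the AB libraries of their stage. They correlated best with their own number in 3 of 7, 2 of 5, 1 of 4 and 2 of 3 cases. A minimum of 50000 could not be fitted for P3 over AB and E4 over E2, since a side kept fewer than 2 libraries.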
